A study of Arabidopsis thaliana with 6 samples.

Results

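MicroRNA precursor genes of Arabidopsis thaliana were taken from the deposited gene table by symbol, as every gene whose name starts with MIR and a number. The rule found 175 of the 33557 genes listed, in 104 families by number, and all 175 matched a gene annotated as a microRNA gene in the RefSeq annotation. The libraries came from whole 10-day-old seedlings of the Columbia ecotype, grown on a quarter-strength salt medium with sucrose, 3 libraries of wild type (Col) and 3 of plants labelled CPL4 knockdown (CPL4RNAi). CPL4 removes phosphate from the tail of the largest subunit of RNA polymerase II, and RNAi is RNA interference. Neither the promoter of the RNAi construct nor the number of independent lines is stated in the labels. Ribosomal RNA was removed from total RNA, and paired reads of 100 bp were taken. The gene table holds 1 FPKM value (a fragment count divided by transcript length and by library size) per genotype over its 3 libraries, so no spread between libraries can be given for any microRNA gene, and every p-value and q-value below is that of the authors' own test. A gene is here said to be called, to have risen or to have fallen at q under 0.05. The lowest p-value of the authors' test in the gene table was 5e-05, which goes with q = 6.39e-04. Genes that share this q are therefore not ranked by it.

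The target transcript itself was higher in the libraries labelled CPL4 knockdown, at 8.84 FPKM against 4.92 FPKM in wild type (AT5G58003, log2 ratio 0.85, q = 6.39e-04 in the authors' deposited table). "Labelled knockdown" below therefore names the libraries by their label. Of 4 root and 4 shoot markers, 6 were tested and 1 was called. The root iron transporter gene IRT1 rose from 2.47 to 7.17 FPKM (q = 6.39e-04 in the authors' deposited table). The root genes PYK10 (589 and 593 FPKM in wild type and labelled knockdown) and SCR (10.3 and 11.0 FPKM) were not called, and COBL9 of root hairs (0.688 and 0.387 FPKM) was not tested. The leaf genes RBCS1A (4637 and 5823 FPKM), LHCB1.1 (2818 and 2622 FPKM) and LHCB2.1 (1602 and 1261 FPKM) were not called, and the flower gene AP1 was listed at 0 in both. The part of tissue makeup in the microRNA values was not tested. Library totals are not stated in the labels or tables, so the depth behind each value is unknown. The coverage table, the one file with values per library, has 150 snRNA regions, and 0 of them overlapped a microRNA locus.

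MicroRNAs are made in plants from long primary transcripts of RNA polymerase II. The nuclear enzyme DCL1 cuts a hairpin out of the primary transcript and then a short duplex out of the hairpin, and one strand guides the Argonaute protein AGO1 to messenger RNAs with a nearly complementary site. Many plant microRNAs target transcription factor genes of development or genes of nutrient and copper balance. The values below are of annotated precursor genes, and mature microRNAs were not analysed here.

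The mature sequences of the precursors on which the results turn are shown first, because they are what ties a precursor to its targets. Several genes of a family can give the same mature sequence, as MIR167A and MIR167B do, and the values below are told apart by locus. They come from RefSeq (TAIR10.1), 5′ to 3′, with the seed (bases 2 to 8) in capitals. The MIR167 pair shares a seed, which 3 of the 4 MIR167 genes carry. The seed of miR156c-5p and that of miR166a-3p each occur in 9 genes of the table.
miR167a-5p: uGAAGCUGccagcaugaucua
miR167d: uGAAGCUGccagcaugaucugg
miR163: uUGAAGAGgacuuggaacuucgau
miR166a-3p: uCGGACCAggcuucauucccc
miR398c-3p: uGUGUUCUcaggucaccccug
miR162a-3p: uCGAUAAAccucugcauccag
miR156c-5p: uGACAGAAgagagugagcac
miR164b-5p: uGGAGAAGcagggcacgugca
miR850: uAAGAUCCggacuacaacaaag

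Most microRNA genes were listed at 0 in both genotypes, which does not show that their precursors were absent. Of the 175, 142 were listed at 0 FPKM in both genotypes, which is 81.1% of them. The share was 23.2% of all genes in the table, which were not matched for span. The other 33 belonged to 28 families. Levels among them were low, with a median of 1.20 FPKM over the 30 listed above 0 in wild type and of 1.78 FPKM over the 24 listed above 0 in the labelled knockdown. Several large families had no copy or a single copy above 0. All 6 genes of miR395, which acts on sulfate assimilation, and all 6 of miR399, which acts on phosphate balance, were at 0 in both genotypes. MIR156 had 1 gene above 0 of 8, MIR166 1 of 7, MIR167 2 of 4 and MIR169 4 of 14.

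The share of microRNA genes above 0 was larger where the deposited locus was longer. Among the 142 microRNA genes that shared their locus with no other gene, 0 of 39 with a span up to 100 bp were above 0. The counts were 2 of 50 at 101 to 150 bp, 6 of 23 at 151 to 200 bp, 5 of 18 at 201 to 300 bp, 4 of 8 at 301 to 1000 bp and 4 of 4 beyond 1000 bp. Among other genes of the table, 8.06% were above 0 up to 100 bp, a class made mostly of tRNA genes, and 51 of 143 (35.7%) without the tRNA genes. The longer classes of other genes had 43 of 357 above 0 at 101 to 150 bp, 9.39% at 151 to 200 bp, 18.4% at 201 to 300 bp, 50.8% at 301 to 1000 bp and 86.4% beyond. The 4 longest, MIR167D, MIR172, MIR156C and MIR162A, have annotated transcripts that run well past the hairpin. Most other microRNA genes are annotated as little more than the hairpin. At unknown depth, a listed 0 does not show that a precursor was absent.

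**Figure D1:**
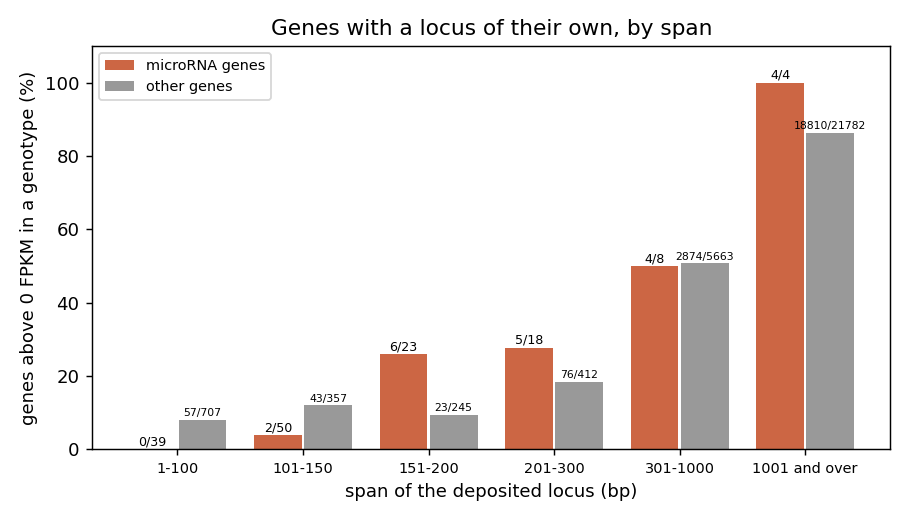
Share of genes listed above 0 FPKM in at least 1 genotype (y axis, percent) by span of the deposited locus (x axis, bp), for microRNA genes and all other genes that share their locus with no other gene; the counts stand over the bars. None of the 39 shortest microRNA genes was above 0, against 4 of 4 with a span beyond 1000 bp.

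Of the 13 microRNA genes that the authors' deposited table tested, 1 fell and 0 rose in the labelled knockdown. That is set beside 22.5% of all 18038 tested genes called in either direction, 9.78% lower and 12.7% higher. At an unadjusted p under 0.05 the deposited test gave 1 lower and 1 higher, beside 33.7% of all tested genes in either direction. In a whole seedling, fewer cells of a type and less RNA per cell cannot be told apart. By value, 9 of the 13 were lower in the labelled knockdown and 4 were higher, where 50.4% of all tested genes were lower. The median log2 ratio of the 12 tested microRNA genes above 0 in both genotypes was −0.29, from −1.70 to 2.56, and that of all tested genes was −0.00.

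**Figure D2:**
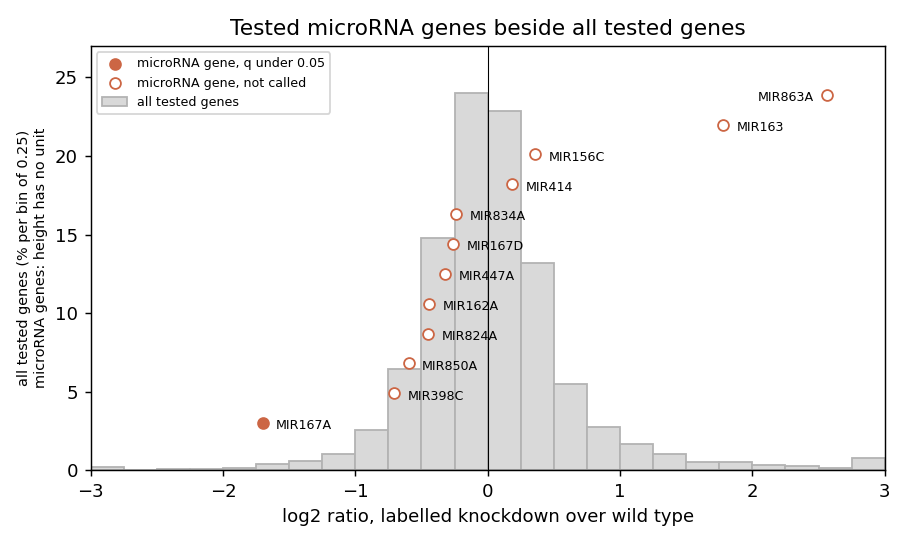
Log2 ratio of FPKM, labelled knockdown over wild type (x axis), for the 12 tested microRNA genes above 0 in both genotypes (circles, stacked in order, height without unit) over the distribution of all tested genes (grey bars, percent per bin, end bins holding all values beyond the axis). MIR167A, the filled circle, is the one called gene at a log2 ratio of −1.70.

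MIR167A was the gene that fell. It encodes miR167a, which targets the auxin response factor genes ARF6 and ARF8. MIR167A (AT3G22886, chromosome 3, 8108021 to 8108622, TAIR10) had 5.77 FPKM in wild type against 1.78 FPKM in the labelled knockdown, 3.24-fold lower (p = 0.0103, q = 0.0467 in the authors' deposited table). The call lay close to the threshold. In the deposited table of transcription start groups, where MIR167A has 1 group with the same 2 FPKM values, q was 0.0564 and the gene was not called. Its annotated hairpin has 138 bases on the forward strand at chr3:8108072-8108209 in TAIR10.1. It is shown because it contains the part that DCL1 cuts out, with the miR167a-5p and miR167a-3p arms in capitals. RNAfold gave it a minimum free energy of −56.8 kcal/mol, with 20 of 21 bases of the 5p arm and 19 of 21 of the 3p arm paired.
MIR167A hairpin: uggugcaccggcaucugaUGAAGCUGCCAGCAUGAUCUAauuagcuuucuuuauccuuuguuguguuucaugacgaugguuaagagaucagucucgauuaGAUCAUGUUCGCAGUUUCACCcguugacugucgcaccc

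Its sister gene did not share the call. MIR167D (AT1G31173, chromosome 1, 11137365 to 11138969) had the second highest level of all microRNA genes in wild type, 12.5 FPKM, and 10.4 FPKM in the labelled knockdown (log2 ratio −0.26, q = 0.269 in the authors' deposited table). MIR167B and MIR167C were listed at 0 in both genotypes. Summed over the family, MIR167 precursors stood at 18.2 FPKM in wild type and 12.2 FPKM in the labelled knockdown. MIR167D made up most of that listed sum in both. The loci of MIR167B and MIR167C span 91 and 160 bp, and their listed 0 does not show that the precursors were absent. The difference between the log2 ratios of MIR167A and MIR167D was not tested.

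The targets of miR167 were not called. ARF6 stood at 33.2 FPKM in wild type and 27.4 FPKM in the labelled knockdown (log2 ratio −0.27, q = 0.123), ARF8 at 13.6 and 12.5 FPKM (log2 ratio −0.13, q = 0.550), both in the authors' deposited table. IAR3, an enzyme gene that frees auxin from its conjugates and is also a known target, went from 12.9 to 16.0 FPKM (log2 ratio 0.31, q = 0.122 in the authors' deposited table). The sites are shown because they are where miR167a would pair. They were found as the best ungapped complement of miR167a-5p in the RefSeq transcripts, both in coding sequence, with the bases that match the complement in capitals, 18 of 21 in ARF8 (chr5:14633841-14633861, forward strand, TAIR10.1) and 17 of 21 in ARF6 (chr1:10686478-10686498, reverse strand).
ARF8 site: UAGAUCAgGCUGGCAGCUUgu
ARF6 site: gAGAUCAgGCUGGCAGCUUgu

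Of the tested genes that were not called, MIR163 came nearest. It encodes a long microRNA that targets methyltransferase genes. MIR163 (AT1G66725, chromosome 1, 24883931 to 24884559) stood at 0.520 FPKM in wild type and 1.78 FPKM in the labelled knockdown (log2 ratio 1.78, p = 0.0162, q = 0.0659 in the authors' deposited table). None of its 5 listed targets was tested, and the highest of them, FAMT, was at 0.820 and 0.920 FPKM. The other 11 tested genes had q from 0.269 to 0.881 in the authors' deposited table. MIR398C, precursor of the copper-regulated miR398, went from 4.85 to 2.98 FPKM (log2 ratio −0.71). MIR162A, whose product targets DCL1 itself, went from 4.21 to 3.10 FPKM (log2 ratio −0.44). MIR824A, which targets the MADS-box gene AGL16, went from 1.57 to 1.15 FPKM (log2 ratio −0.45), and MIR447A from 3.85 to 3.08 FPKM (log2 ratio −0.32). On the other side were MIR156C, of the family that delays the juvenile to adult change, at 2.69 and 3.44 FPKM (log2 ratio 0.36), and MIR414, at 6.45 and 7.34 FPKM (log2 ratio 0.19). MIR834A was at 2.04 and 1.73 FPKM (log2 ratio −0.24). None of these 7 passed the deposited test.

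**Figure D3:**
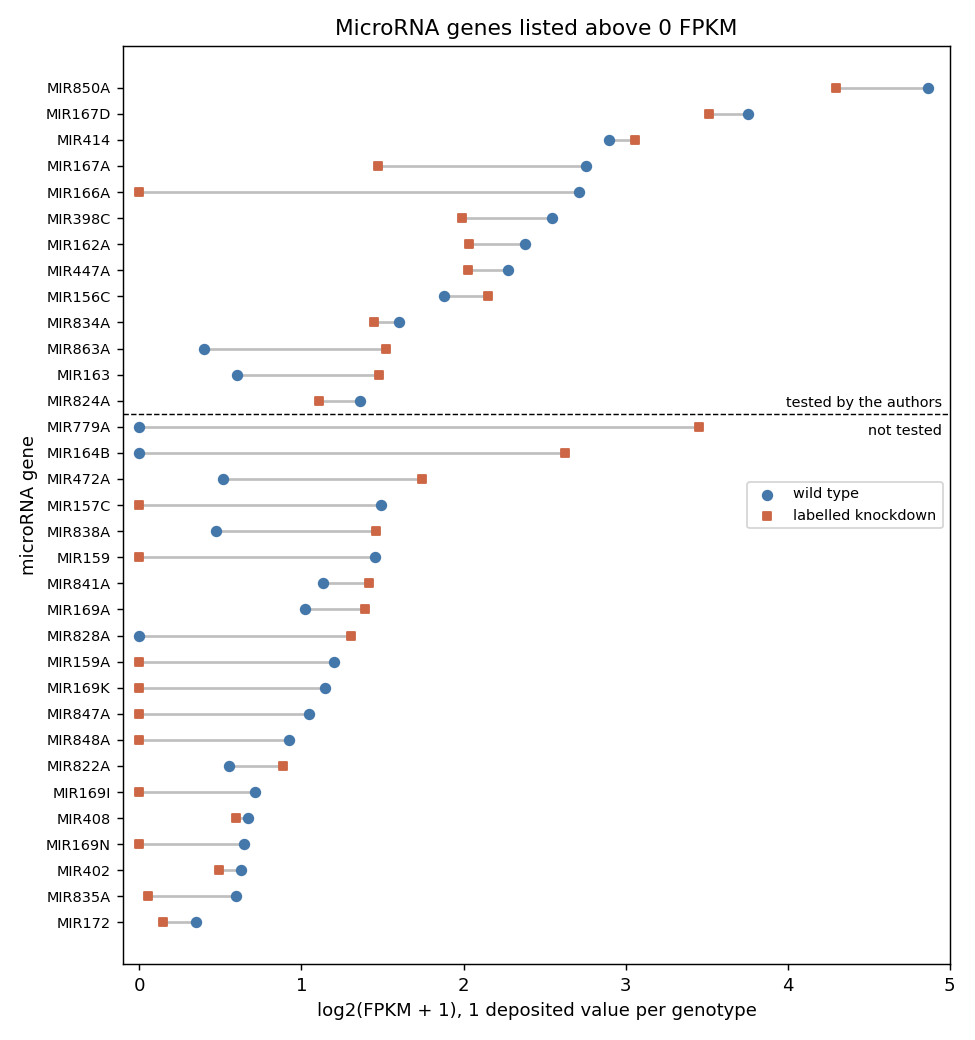
FPKM on a log2(FPKM + 1) axis (x) for the 33 microRNA genes listed above 0 in at least 1 genotype (y), with circles for wild type and squares for the labelled knockdown, 1 deposited value each. MIR850A and MIR167D have the highest values in wild type, and 12 genes have 1 marker at 0.

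Some precursors were listed in a single genotype. There were 9 microRNA genes above 0 in wild type and at 0 in the labelled knockdown, and 3 the other way round, while over all genes 1255 (3.74%) were above 0 in wild type alone and 2012 (6.0%) in the labelled knockdown alone. MIR166A (AT2G46685, chromosome 2, 19176126 to 19176261), of the family that restricts the HD-ZIP III genes of leaf polarity, was at 5.56 FPKM in wild type and was listed at 0 in the labelled knockdown, yet it was not called (p = 0.128, q = 0.282 in the authors' deposited table). The other 8 were not tested and ranged from 0.564 to 1.81 FPKM in wild type. They included both genes of miR159 listed above 0, and miR159 targets the MYB33 group. MIR159A was at 1.29 FPKM, and the gene listed as MIR159, MIR159b in RefSeq, at 1.74 FPKM. Of 2 tested miR159 targets, MYB33 fell from 7.94 to 5.36 FPKM (q = 0.00808 in the authors' deposited table). The other, MYB65, was not called, at 2.97 and 2.92 FPKM, and a link to the precursor values was not tested. MIR157C (1.81 FPKM) and MIR847A (1.06 FPKM) were also listed at 0 in the labelled knockdown. So were 3 genes of a tandem array of MIR169 genes on chromosome 3, MIR169I (0.639 FPKM), MIR169K (1.22 FPKM) and MIR169N (0.564 FPKM), whose product targets NF-YA transcription factor genes. MIR169J, MIR169L and MIR169M of the same array were at 0 in both.

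The 3 genes listed in the labelled knockdown alone were not tested either. MIR779A (AT2G22496, chromosome 2, 9560761 to 9560923) was at 9.96 FPKM, MIR164B (AT5G01747, chromosome 5, 287586 to 287734) at 5.19 FPKM and MIR828A (AT4G27765) at 1.48 FPKM. miR164 targets CUC and other NAC genes, and miR828 targets MYB genes and the TAS4 transcript. With no test and spans of 149 to 191 bp, these values are a description of the deposited FPKM and carry no call. The 9 untested genes above 0 in both genotypes had log2 ratios from −3.75 to 2.45. Lowest was MIR835A, at 0.514 FPKM in wild type and 0.0381 FPKM in the labelled knockdown. MIR169A, the fourth MIR169 gene above 0, was at 1.03 and 1.63 FPKM, and the gene listed as MIR172 on chromosome 2, MIR172a in RefSeq, at 0.275 and 0.105 FPKM. By listed value alone, the direction differed within the MIR169 genes. None of them was tested, and at unknown depth such low values do not show a difference in direction.

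Of the 175 loci, 33 were shared with at least 1 other gene, always with the same start and end, so that the deposited locus is a bundle of overlapping genes. The reads behind such a value cannot be assigned with certainty to the hairpin. Of the 33, 12 were above 0, against 21 of the 142 genes with a locus of their own, and 5 of the 13 tested genes were among them. These were MIR850A, MIR863A, MIR398C, MIR824A and MIR834A, and MIR167A was not among them. The partner of MIR398C, the nitrate transporter gene ATNRT2.7 on the opposite strand, stood at 11.5 and 11.9 FPKM and was not called. That of MIR824A, AT4G24410 on the opposite strand, stood at 0.0901 and 0 FPKM and was not tested. In RefSeq the hairpins of MIR398C and MIR824A lay outside these partner genes. The same held for 11 pairs of microRNA gene and partner on opposite strands in all, and for 5 on the same strand. In RefSeq, 14 of the 33 lay in an intron of a gene on the same strand, and 4 of these were above 0. One lies in the DCL1 gene itself: MIR838A, in a DCL1 intron, stood at 0.389 FPKM in wild type and 1.75 FPKM in the labelled knockdown and was not tested, while DCL1 stood at 8.39 and 9.62 FPKM (q = 0.393 in the authors' deposited table). MIR472A, whose hairpin lies in an exon of AT1G12290 on the same strand, went from 0.430 to 2.34 FPKM, also untested.

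The highest microRNA gene was part of such a bundle. MIR850A and MIR863A share a locus on chromosome 4 (7842967 to 7846899) with AT4G13495, a non-coding RNA gene on the same strand; MIR850A lies in its intron and MIR863A overlaps an exon in part. MIR850A stood at 28.2 FPKM in wild type and 18.7 FPKM in the labelled knockdown (log2 ratio −0.60, q = 0.704 in the authors' deposited table). MIR863A stood at 0.317 and 1.87 FPKM (log2 ratio 2.56, q = 0.640 in the authors' deposited table). AT4G13495 fell from 105 to 46.7 FPKM (log2 ratio −1.17, q = 6.39e-04 in the authors' deposited table). Within this bundle the host fell, and neither microRNA gene was called. The part that reads of the host play in the 2 microRNA values was not tested.

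Across all shared loci, 45 other genes were involved, 28 of them tested, with 3 called lower and 1 higher, no larger a share than the 22.5% of all tested genes. Besides AT4G13495, AT2G47020, antisense to MIR408, fell from 3.80 to 2.42 FPKM (q = 0.0237), and AT5G14550, antisense to MIR398B, fell from 12.2 to 8.20 FPKM (q = 0.00515), both in the authors' deposited table. FC-I, a ferrochelatase gene with MIR860A in an exon, rose from 12.1 to 17.3 FPKM (q = 0.00927 in the authors' deposited table). MIR408, a copper-regulated gene, was at 0.589 and 0.513 FPKM and not tested, and MIR398B and MIR860A were at 0. No label says whether the libraries mark strand. If they do not, reads of a gene and its antisense partner cannot be told apart where the genes overlap.

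The 175 genes had 179 transcription start groups, of which 13 were tested, 0 called higher and 0 lower, where 17.5% of all tested start groups were called, 10.2% higher and 7.34% lower. At an unadjusted p under 0.05 the deposited test gave 1 higher and 2 lower. The share of all start groups under that threshold was not counted, and that of all tested genes was 33.7%. Only MIR162A, MIR414 and MIR824A had more than 1 group. MIR162A had its level in different groups in the 2 genotypes. One held 4.21 FPKM in wild type, 100.0% of the gene's level, and 0.814 FPKM in the labelled knockdown, 26.2% of it (p = 0.0472, q = 0.167 in the authors' deposited table). The other was near 0 in wild type and held 2.29 FPKM in the labelled knockdown, 73.8% of the gene's level (p = 0.0933, q = 0.263 in the authors' deposited table). Neither group was called, and the shift itself was not tested. In MIR414, the smaller group stood at 0.701 FPKM in wild type and 0.00258 FPKM in the labelled knockdown and was untested. Its main group stood at 5.75 and 7.34 FPKM (q = 0.592 in the authors' deposited table). In MIR824A, the first of 3 groups was at 0.817 FPKM in wild type and 0.128 FPKM in the labelled knockdown and the second at 0.479 and 0.755 FPKM, all untested.

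**Figure D4:**
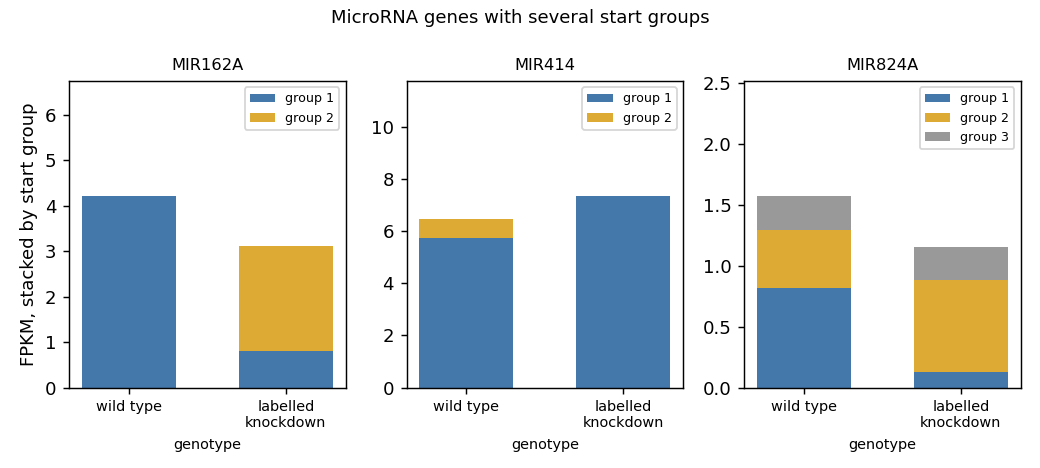
FPKM (y axis) of MIR162A, MIR414 and MIR824A in wild type and labelled knockdown (x axis), stacked by transcription start group, 1 deposited value each and a separate scale per gene. In MIR162A the group that held 4.21 FPKM in wild type stood at 0.814 FPKM in the labelled knockdown, where the other held 2.29 FPKM.

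Known target genes of the families were called in both directions. Of 108 listed targets, 83 were tested, with 12 called higher and 11 lower, 27.7% beside 22.5% of all tested genes. Their median log2 ratio was −0.12, from −1.51 to 1.16. The largest changes among the called targets were in the miR395 targets of sulfate uptake and assimilation: the ATP sulfurylase gene APS3 fell from 16.3 to 5.72 FPKM and the sulfate transporter gene SULTR2;1 from 84.6 to 30.8 FPKM (q = 6.39e-04 each in the authors' deposited table). APS1 (log2 ratio 0.04) and APS4 (log2 ratio 0.20) were not called, and all MIR395 genes were at 0.

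The targets of miR164 and of miR398 are described next, both families chosen after their values were seen, and 12.7% of all tested genes were called higher. Of 4 tested miR164 targets, 3 rose and 0 fell. ORE1, a NAC gene of leaf ageing, rose from 3.51 to 7.86 FPKM (q = 6.39e-04), NAC100 from 0.901 to 1.78 FPKM (q = 0.0389) and NAC080 from 1.3 to 2.33 FPKM (q = 0.0485), all in the authors' deposited table. NAC1 was not called, at 7.66 and 8.68 FPKM. Of the MIR164 precursors, MIR164B alone was above 0, and it was not tested. All 3 miR398 targets rose. The copper and zinc superoxide dismutase genes CSD1 (92.6 to 129 FPKM, q = 0.00586) and CSD2 (90.3 to 128 FPKM, q = 0.00117) and their copper chaperone gene CCS (26.5 to 35.2 FPKM, q = 0.0225) make up this group in the authors' deposited table.

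Called targets of other families went in both directions, where 9.78% of all tested genes were called lower and 12.7% higher. Of 7 tested SPL genes, targets of miR156 and miR157, 2 fell and 0 rose: SPL9 went from 5.64 to 3.42 FPKM (q = 0.00718) and SPL11 from 3.51 to 2.06 FPKM (q = 0.0128) in the authors' deposited table. SPL5, at 1.44 and 0.632 FPKM, had a larger log2 ratio of −1.19 and was not called. GRF4, a growth factor gene under miR396, fell from 4.89 to 2.67 FPKM (q = 0.00295 in the authors' deposited table) as 1 of 5 tested GRF genes. Of 5 tested TCP genes under miR319, 2 fell. Of 5 HD-ZIP III genes under miR165 and miR166, 1 fell. Among single rises were AGO2, an Argonaute gene under miR403 (4.2 to 7.54 FPKM, q = 6.39e-04), ARPN, a copper protein gene under miR408 (1.47 to 3.18 FPKM, q = 0.0438), and NFYA2 under miR169 (6.83 to 10.7 FPKM, q = 0.00295), all in the authors' deposited table. The GRAS genes under miR171 divided, with HAM3 higher (6.85 to 11.2 FPKM, q = 6.39e-04) and HAM2 lower (13.1 to 9.24 FPKM, q = 0.00515) in the authors' deposited table.

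**Figure D5:**
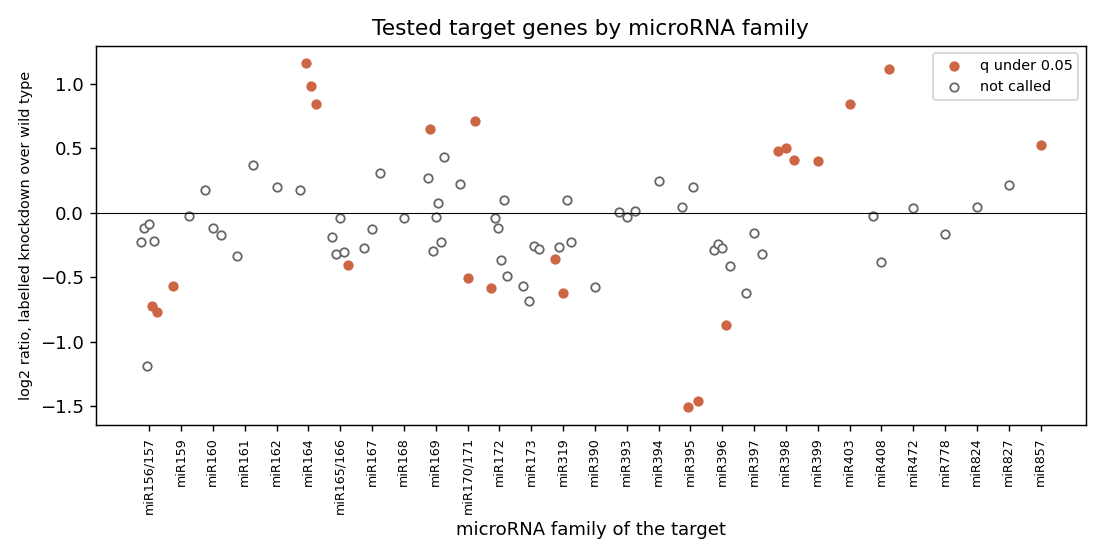
Log2 ratio of FPKM, labelled knockdown over wild type (y axis), for the 83 tested target genes by microRNA family (x axis), filled where q was under 0.05 in the authors' deposited table. The 3 tested miR398 targets and 3 of the 4 miR164 targets are called higher, and the 2 called miR395 targets have the lowest values of the plot.

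Genes that make microRNAs were called in a share near that of all genes. Of 24 listed for processing, stabilisation, export and turnover, all tested, 3 rose and 1 fell, 16.7% beside 22.5% of all tested genes, and the median log2 ratio was 0.08. DCL1, its partner HYL1 (4.90 and 4.60 FPKM), SE (17.2 and 20.6 FPKM), the methyltransferase gene HEN1 (4.86 and 5.25 FPKM) and AGO1 (52.4 and 51.1 FPKM) were not called. DCL1 and AGO1 are also among the listed targets, so the lists are not of separate genes. STA1, a splicing factor gene that also acts on primary microRNAs, rose from 18.6 to 38.9 FPKM (q = 6.39e-04 in the authors' deposited table). CPL1, a phosphatase of HYL1 and of the same family as CPL4, rose from 9.97 to 14.8 FPKM (q = 0.00166), and SQN, a cyclophilin gene that aids AGO1, from 3.81 to 5.65 FPKM (q = 0.0382), both in the authors' deposited table. SDN2, one of the nucleases that degrade mature microRNAs, fell from 5.13 to 3.43 FPKM (q = 0.0215 in the authors' deposited table).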

How the data were processed

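The members and the gene lists were chosen with earlier results of these data known. The submitters' processing notes name TopHat2 2.0.14 and Cuffdiff 2.2.1.3, besides SAMtools, CASAVA 1.8.2 and Trim Galore 0.4.0, with the build TAIR10 and no options. FPKM was deposited by the authors per gene and per start group, 1 value per genotype, in the layout of Cuffdiff. Each p-value and q-value of the deposited tables was used as it stands, with calls at q under 0.05. The deposited coverage signal over snRNA regions was used only to look for overlap. Log2 ratios were recomputed from FPKM above 0 in both genotypes with no pseudocount. Deposited locus starts count from 0, so 1 was added: 7385 of 26687 protein-coding genes then matched the RefSeq start, against 132 without. Spans sharing at least 1 base were called shared. Names, strands, hairpins and mature sequences came from RefSeq (TAIR10.1), by locus identifier.

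Genes were named by rule: the called members, the 5 highest, the 5 tested but not called with the largest changes each way, those at 0 in one genotype and at 1 FPKM or more in the other, genes sharing a called locus, targets of called families, and the called genes of each list, up to 12. MIR838A, MIR472A, MIR408 and the other members below these limits, the hosts of shared loci, the start groups of MIR162A, and the uncalled or lower-ranked genes of the lists (such as FAMT, NAC1, SPL5, APS1, APS4, HAM2, HYL1, SE, HEN1, CSD1, CSD2 and CCS) were added after their values were seen. Overlap and counting steps were tested on simulated data. Python 3.11.15, pandas 2.3.3, numpy 2.4.6, matplotlib 3.10.9 and RNAfold 2.7.2 were used. Library depth is unknown, and no counting interval or floor is stated. Whether the 3 libraries per genotype came from separate batches of plants is known only from the submitters' word that they are biological replicates.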

Additional observations from a re-analysis of the deposited data

How the results depend on the processing

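The number of microRNA genes called, 1 of 13, was 0 at q under 0.01 and 2 at an unadjusted p under 0.05, where MIR163 joined MIR167A. It was 0 in the start group table, with 3 start groups at an unadjusted p under 0.05 in the deposited Cuffdiff test. With at least 1 FPKM in a genotype, with loci shared with no other gene, and with 3 more genes added by RefSeq name, all at 0, it stayed 1. Of all tested genes, 13.7% had q under 0.01 and 33.7% an unadjusted p under 0.05 in the deposited Cuffdiff test. Of all tested start groups, counted singly, 17.5% were called. Of 83 tested targets, those called numbered 15 at q under 0.01, 30 at an unadjusted p under 0.05 and 19 genes by start group, against 23. Of 24 tested biogenesis genes, those called numbered 2, 6 and 4, against 4. The median log2 ratio of tested microRNA genes lay between −0.31 and −0.24 over 6 alternatives, against −0.29. Leaving out a library could not be done with 1 value per genotype. No paired analysis was possible because the tables hold 1 value per genotype and no test was fitted here. Unknown depth limits every value near 0.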
